A study of Mus musculus with 8 samples.

Results

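Ebf1 and Pax5 encode transcription factors of the B lineage, and the open chromatin at both loci was followed through 8 ATAC-seq libraries of c-Kit+ mouse bone marrow cells. ATAC-seq uses the transposase Tn5 to cut DNA that is free of packed nucleosomes, so a peak marks accessible chromatin. Members were all peaks that overlapped an mm9 window of 450 kb around Ebf1 (chr11:44400000-44850000) or one of 230 kb around Pax5 (chr4:44520000-44750000). The lists gave 81 peaks at Ebf1 and 17 at Pax5 over all libraries. Peaks that overlapped by at least 1 bp were merged into regions, which gave 16 regions at Ebf1 and 5 at Pax5, 21 of 114533 in the whole series.

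Cells expressing c-Kit (Cd117) were taken from the marrow of single mice on magnetic beads, 4 weeks after injection of PIpC, which induces the interferon-driven Mx1-Cre recombinase in blood-forming cells, and 50000 cells went into each library. There were 4 genotypes with 2 libraries each. Control mice were Smc3 fl/+ and lacked Mx1-Cre. Smc3 del/+ mice had lost 1 copy of Smc3, which encodes a core subunit of the cohesin ring. Flt3-ITD mice carried an internal tandem duplication that keeps the receptor tyrosine kinase Flt3 active, and mice with both changes are called Smc3-deleted Flt3-ITD. For this last group the genotype label reads Smc3 fl/del and the title reads Smc3 heterozygous, so the state of the second Smc3 copy is not settled. The titles mark the control libraries as Mx-minus and all others as Mx-plus, so every comparison with control also compares mice with and without the recombinase. In the free text, Flt3-ITD libraries are described as carrying a floxed Smc3 allele and Smc3 del/+ libraries as carrying Flt3-ITD, against their titles and genotype labels. Titles and genotype labels were followed here. Nothing states outright that both libraries of a genotype came from different mice, so the spread given may be technical.

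Ebf1 acts early in the step from common lymphoid progenitor to pro-B cell and opens chromatin at B-lineage genes. Pax5 acts after it and holds cells in the B lineage. Flt3 signalling supports early lymphoid progenitors, and the c-Kit+ fraction of marrow holds mostly stem cells and myeloid and erythroid progenitors, with some lymphoid progenitors. In a bulk library, fewer cells of a type and less accessible chromatin per cell cannot be told apart. Other B-lineage genes and Kit itself were not analysed here, so the labelled cell type was not checked against its markers.

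Promoter sequences from RefSeq are shown because every library had a peak within 234 bp of the approximate Ebf1 start and because both genes are the members described. Each sequence is the 250 bases before a start, 5′ to 3′ on the strand of the gene, in build GRCm38.p6, whose coordinates differ from those of the mm9 peaks. Both gene symbols matched the table. RefSeq gives Ebf1 a first start (chr11:44617850-44618099, plus strand) and a second start 2128 bp further on (chr11:44619978-44620227, plus strand). Pax5 has 1 start (chr4:44710695-44710944, minus strand), which could not be placed among the mm9 peaks. Capitals mark every match to the motifs searched.
Ebf1 first start: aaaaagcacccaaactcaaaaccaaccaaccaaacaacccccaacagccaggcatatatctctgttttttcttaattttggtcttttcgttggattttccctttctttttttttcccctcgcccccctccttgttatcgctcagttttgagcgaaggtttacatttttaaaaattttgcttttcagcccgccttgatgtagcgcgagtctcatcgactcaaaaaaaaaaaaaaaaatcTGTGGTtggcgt
Ebf1 second start: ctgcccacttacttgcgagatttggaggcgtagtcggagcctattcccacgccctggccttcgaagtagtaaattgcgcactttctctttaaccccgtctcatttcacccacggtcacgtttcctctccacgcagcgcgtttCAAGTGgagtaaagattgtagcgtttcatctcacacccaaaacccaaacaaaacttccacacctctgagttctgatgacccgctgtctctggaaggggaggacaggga
Pax5 start: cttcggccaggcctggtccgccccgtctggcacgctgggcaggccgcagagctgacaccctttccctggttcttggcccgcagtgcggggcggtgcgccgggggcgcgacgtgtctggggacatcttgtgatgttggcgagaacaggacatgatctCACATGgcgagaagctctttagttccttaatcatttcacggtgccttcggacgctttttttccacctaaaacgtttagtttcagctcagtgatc
Searched on both strands were 6 motifs, of which 4 had no match in any of the 3 sequences, and shares below are of 32536 promoter sequences of the same length. The first Ebf1 start held a Runx match (TGTGGT, in 14.0% of promoters) 12 bases before it. An E-box match (CANNTG, in 66.2% of promoters) lay 108 bases before the second Ebf1 start and 94 bases before the Pax5 start, and the first Ebf1 start had none. Without a match in these 3 windows was the STAT motif (TTCNNNGAA), present in 7.04% of promoters. Also without one was the PU.1 motif (GAGGAAGT), present in 2.45%. The GATA motif (AGATAA), present in 9.97%, and the palindromic EBF motif, present in 0.787%, were not matched either. No match says only that these letters are not in these bases.

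Both loci held few peaks for their length. Peak density in the Ebf1 window was 13.3 to 28.9 peaks per Mb over the 8 libraries, against 33.2 to 42.6 on the rest of chromosome 11. At Pax5 it was 4.35 to 13.0 peaks per Mb, against 24.4 to 32.4 on the rest of chromosome 4. The authors' score, used here to rank peaks within a list, was exactly 1 for 4 of the 81 Ebf1 peaks (4.94%) and 3 of the 17 Pax5 peaks (17.6%), against 31.6% of all 555490 distinct peaks. Both windows were thus sparser than their chromosomes in every library.

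The length of the peak lists bears on every count below. The Smc3-deleted Flt3-ITD lists were the longest, with 80505 and 80087 distinct peaks, and the other 6 held 61798 to 74300. They also stood apart on the Y chromosome, with 282 to 294 peaks against 84 to 98 in the other lists. The lists carry no read numbers, so the depth of each library is unknown.

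Over the full lists, peaks at Ebf1 were fewest in the Flt3-ITD single genotype. Control libraries had 12 and 12 peaks in the Ebf1 window. Smc3 del/+ libraries had 10 and 9, and Flt3-ITD libraries had 6 and 8. Smc3-deleted Flt3-ITD libraries had 11 and 13, so they overlapped control, while both Flt3-ITD libraries lay below all 6 others. As mean ± SD (n = 2 each) the order was control at 12 ± 0 and Smc3-deleted Flt3-ITD at 12 ± 1.41, then Smc3 del/+ at 9.5 ± 0.707, then Flt3-ITD at 7 ± 1.41. Per 10000 autosomal peaks of the same list, the level was 1.80 ± 0.179 in control, 1.58 ± 0.143 in Smc3 del/+, 1.54 ± 0.188 in Smc3-deleted Flt3-ITD and 1.12 ± 0.261 in the Flt3-ITD single genotype (SD, 2 libraries each). On that scale Smc3 del/+ (1.68 and 1.48) overlapped both control (1.675 and 1.93) and Smc3-deleted Flt3-ITD (1.41 and 1.6746). Both Smc3-deleted Flt3-ITD libraries lay below both control libraries, the nearest by a narrow margin, and the Flt3-ITD libraries (0.931 and 1.30) were again the lowest. The order depended on the score: among the 50% of peaks ranked highest in each list, Smc3 del/+ libraries had 2 and 2 Ebf1 peaks and Flt3-ITD libraries 4 and 1, against 6 and 7 in control and 5 and 5 in Smc3-deleted Flt3-ITD. Flt3-ITD was then not below Smc3 del/+.

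**Figure D1:**
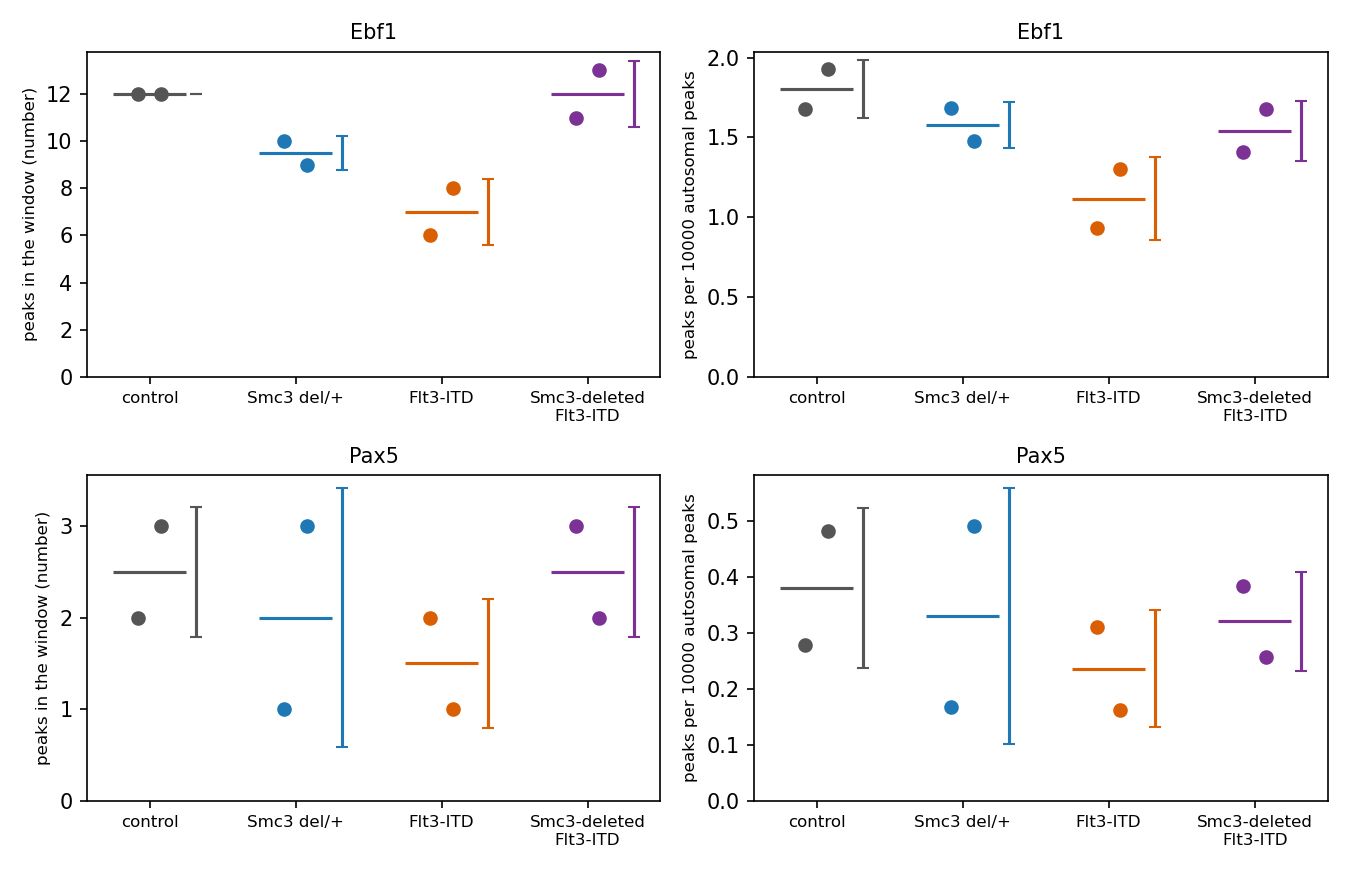
Peaks per library in the Ebf1 window (upper panels) and the Pax5 window (lower panels), as a number (left) and per 10000 autosomal peaks of the same list (right). Points are libraries, horizontal lines are means and bars are ± SD (n = 2); both Flt3-ITD libraries, with 6 and 8 Ebf1 peaks, lie below the other 6, and the Pax5 values overlap between genotypes.

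Tests over all 8 libraries set the 4 with a change against the 4 without it. The two-sided exact permutation test of 4 against 4 cannot go below p = 0.0286. When only 1 of the 8 tests reaches it, the adjusted p is 0.2286, so no single test could pass alone. For Flt3-ITD, Ebf1 peak number differed by -1.25 (9.5 ± 3.11 with, 10.75 ± 1.5 without, SD, n = 4 each; exact permutation p = 0.5714, adjusted p = 1 over 8 tests). For Smc3 deletion the difference was 1.25 (exact permutation p = 0.5714, adjusted p = 1). Bases covered by peaks in the Ebf1 window differed by 581 bp for Flt3-ITD (exact permutation p = 0.6286) and by 177 bp for Smc3 deletion (exact permutation p = 0.8857), and by -178 and -649 bp without Smc3-deleted Flt3-ITD replicate 2. No difference passed the test, and the groups overlapped in all of these measures.

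With an equal number of peaks taken from each list, 61798 by score, the picture at Ebf1 was another. Control libraries then had 10 and 12 Ebf1 peaks and Smc3 del/+ libraries 10 and 9. Flt3-ITD libraries had 6 and 8, and Smc3-deleted Flt3-ITD libraries 7 and 8. All 4 libraries with Flt3-ITD lay below all 4 without it, a difference of -3 (exact permutation p = 0.0286, the smallest possible; adjusted p = 0.2286 over 8 tests). Of the 11 and 13 Ebf1 peaks in the full Smc3-deleted Flt3-ITD lists, 4 and 5 thus ranked beyond that number.

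A further comparison, which sets the effect of Smc3 deletion with Flt3-ITD against that without it, was added after the values were seen. It set control and Smc3-deleted Flt3-ITD (11 to 13 Ebf1 peaks) against the 2 single genotypes (6 to 10). The difference of means was 3.75 (exact permutation p = 0.0286, adjusted p = 0.3429 over 12 tests). All 8 libraries were permuted freely, so this p does not single out a difference between the effects of Smc3 deletion. Relative to list length the sides overlapped (1.67 ± 0.213 against 1.35 ± 0.318 peaks per 10000, SD, n = 4 each; exact permutation p = 0.2), and with equal peak numbers the difference was 1 (exact permutation p = 0.6286). Among the 50% of peaks ranked highest it was 3.5 (5.75 ± 0.957 against 2.25 ± 1.26 peaks, SD, n = 4 each; exact permutation p = 0.0286, adjusted p = 0.3429), with no overlap of the sides.

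Along Ebf1, regions common to all libraries sat before, near and far behind the start. Of the 16 regions, 7 were called in all 8 libraries (43.8%, against 31.5% of all regions of the series), 3 in a single library and 6 in between. Positions are given from the approximate start, base 44431000 on chromosome 11, in the direction of transcription. The gene ends near base 44823000, and the next protein-coding genes in RefSeq order are Rnf145 before it and Clint1 after it. Exons and introns were not assigned, since no mm9 annotation was used here. The regions at -31.2 and -6.04 kb (chr11:44399306-44400283 and chr11:44424171-44425743) lay before the start. That at -31.2 kb crossed the window edge, and the peaks of Flt3-ITD replicate 1 and Smc3 del/+ replicate 2 in it lay outside the window. Counted in every library it gave those 2 libraries 7 and 10 peaks.

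Every library had a peak close to the Ebf1 start. The merged region at +0.421 kb (chr11:44430297-44432545) spans the approximate start, but a peak lay over that base in only 2 libraries, control replicate 2 and Flt3-ITD replicate 2. In the other 6 the nearest peak edge was 119 to 234 bp away, and the start is itself only approximate. The region had the greatest mean coverage of the regions common to all libraries, 872 bp. Peaks covered 824 and 369 bp of it in control, 364 and 1470 bp in Smc3 del/+, 404 and 1012 bp in Flt3-ITD, and 1383 and 1148 bp in Smc3-deleted Flt3-ITD. Within control, Smc3 del/+ and Flt3-ITD the libraries of 1 genotype differed by more than 2-fold, so no order among these genotypes can be read. Both Smc3-deleted Flt3-ITD libraries lay above both libraries of control and of Flt3-ITD, and between those of Smc3 del/+, which was not tested. The stretch behind it was the emptiest: 189 kb up to the next region common to all libraries held only 2 regions, at +148 kb (Smc3-deleted Flt3-ITD replicate 2) and +157 kb (Smc3 del/+ replicate 2).

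Behind this stretch lay 4 further common regions, at +191, +194, +264 and +391 kb, the last at the end of the gene. Their intervals are chr11:44621826-44623074, chr11:44624161-44625332, chr11:44694339-44695615 and chr11:44821484-44822462. The region at +264 kb was covered over 579 and 605 bp in control and over 195 and 347 bp in Smc3 del/+. Flt3-ITD libraries had 945 and 1143 bp there, and Smc3-deleted Flt3-ITD libraries 621 and 1230 bp. All 4 libraries with Flt3-ITD were thus above all 4 without it at this site, which was 1 of the 8 common regions of both loci. Over all 36101 regions called in every library, 1.24% were separated in that direction. None of the 8 was separated in the reverse direction (1.92% of all such regions), or by Smc3 deletion upward (1.50%) or downward (1.30%). At +194 kb the libraries of control (394 and 840 bp), Smc3 del/+ (1114 and 421 bp), Flt3-ITD (840 and 754 bp) and Smc3-deleted Flt3-ITD (349 and 432 bp) overlapped, except that the last lay below Flt3-ITD.

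**Figure D2:**
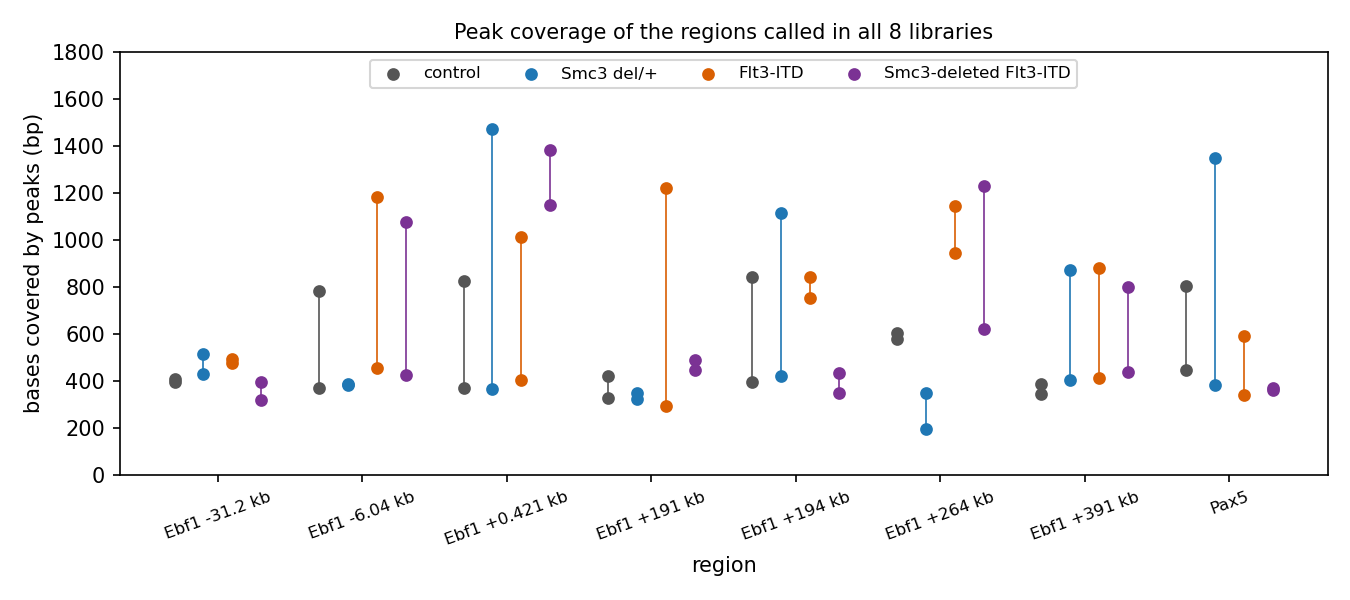
Bases covered by peaks (bp) in the 7 Ebf1 regions and the 1 Pax5 region called in all 8 libraries; the x axis names each region, for Ebf1 by its distance from the start. Points are libraries, coloured by genotype, and a line joins the 2 of a genotype; at +264 kb the Flt3-ITD points (945 and 1143 bp) lie above those of control and Smc3 del/+.

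Summed over the 7 common Ebf1 regions, peaks covered 3790 and 3247 bp in control and 3681 and 3889 bp in Smc3 del/+. The sum was 5957 and 4542 bp in Flt3-ITD and 3980 and 5562 bp in Smc3-deleted Flt3-ITD. Every library with Flt3-ITD was above every library without it. That separation rested on the region at +264 kb, and the sides overlapped when this region was left out of the sum. The sum was formed after the values were seen and carries no test. Over all 36101 regions called in every library, the mean covered length was 622 and 622 bp in Flt3-ITD, 647 and 643 bp in Smc3 del/+, 562 and 566 bp in control and 547 and 554 bp in Smc3-deleted Flt3-ITD, so this order was not that of the lists as a whole. Over the whole Ebf1 window peaks covered 5466 and 5509 bp in Flt3-ITD and 6111 and 5850 bp in control. The window total of Flt3-ITD replicate 1 leaves out its 491 bp peak in the region at -31.2 kb, outside the window. With it the total equals the 5957 bp summed above, more than in control replicate 2, so the genotypes then overlapped.

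Most differences in calls lay beyond the middle of Ebf1. Peaks centred there numbered 6 and 7 in control, 5 and 3 in Smc3 del/+, 2 and 3 in Flt3-ITD and 5 and 6 in Smc3-deleted Flt3-ITD, a split of the gene made after the values were seen. Before the middle the numbers were 3 and 3, 2 and 4, 2 and 3, and 3 and 4 in the same order. Both Flt3-ITD libraries were below both control libraries beyond the middle, and the numbers before it overlapped. The difference between both parts was not tested.

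Regions whose calls followed genotype in both libraries without being common to all were 3, all in this part. The region at +201 kb (chr11:44631631-44632550) was called in both control libraries, over 920 and 363 bp, and in no other. Elsewhere in the genome 723 regions had the same calls. The region at +278 kb (chr11:44708548-44709089) had peaks in Smc3-deleted Flt3-ITD alone, over 385 and 542 bp, a pattern shared by 5212 other regions. The region at +280.1 kb (chr11:44710545-44711561) was called in all 6 libraries outside the Flt3-ITD single genotype, a pattern shared by 471 other regions. Its covered length was 420 and 335 bp in control, 1017 and 426 bp in Smc3 del/+ and 421 and 512 bp in Smc3-deleted Flt3-ITD.

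The last of these belonged to a group of 4 regions within 5.50 kb. Of this group, that at +276 kb (chr11:44706061-44707207) was called in Smc3 del/+ replicate 1 and in both libraries each of control and Smc3-deleted Flt3-ITD, and that at +279 kb (chr11:44709509-44710475) in Flt3-ITD replicate 2 and Smc3-deleted Flt3-ITD replicate 2. These and the following regions are named after their values were seen. Flt3-ITD replicate 1 had no peak in the group, nor anywhere in the 126 kb between the regions at +264 and +391 kb. Flt3-ITD replicate 2 had 1 peak of 967 bp in the group, which ended 69 bp before the region at +280.1 kb, so accessible chromatin was present next to a site it was counted as lacking. The region at +333 kb (chr11:44764035-44764654) was called in both control libraries and Smc3 del/+ replicate 1, and that at +311 kb (chr11:44741509-44742642) in control replicate 2 alone. The 2 Flt3-ITD libraries thus differed here, with an empty stretch in 1 and a wide peak in the other.

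**Figure D3:**
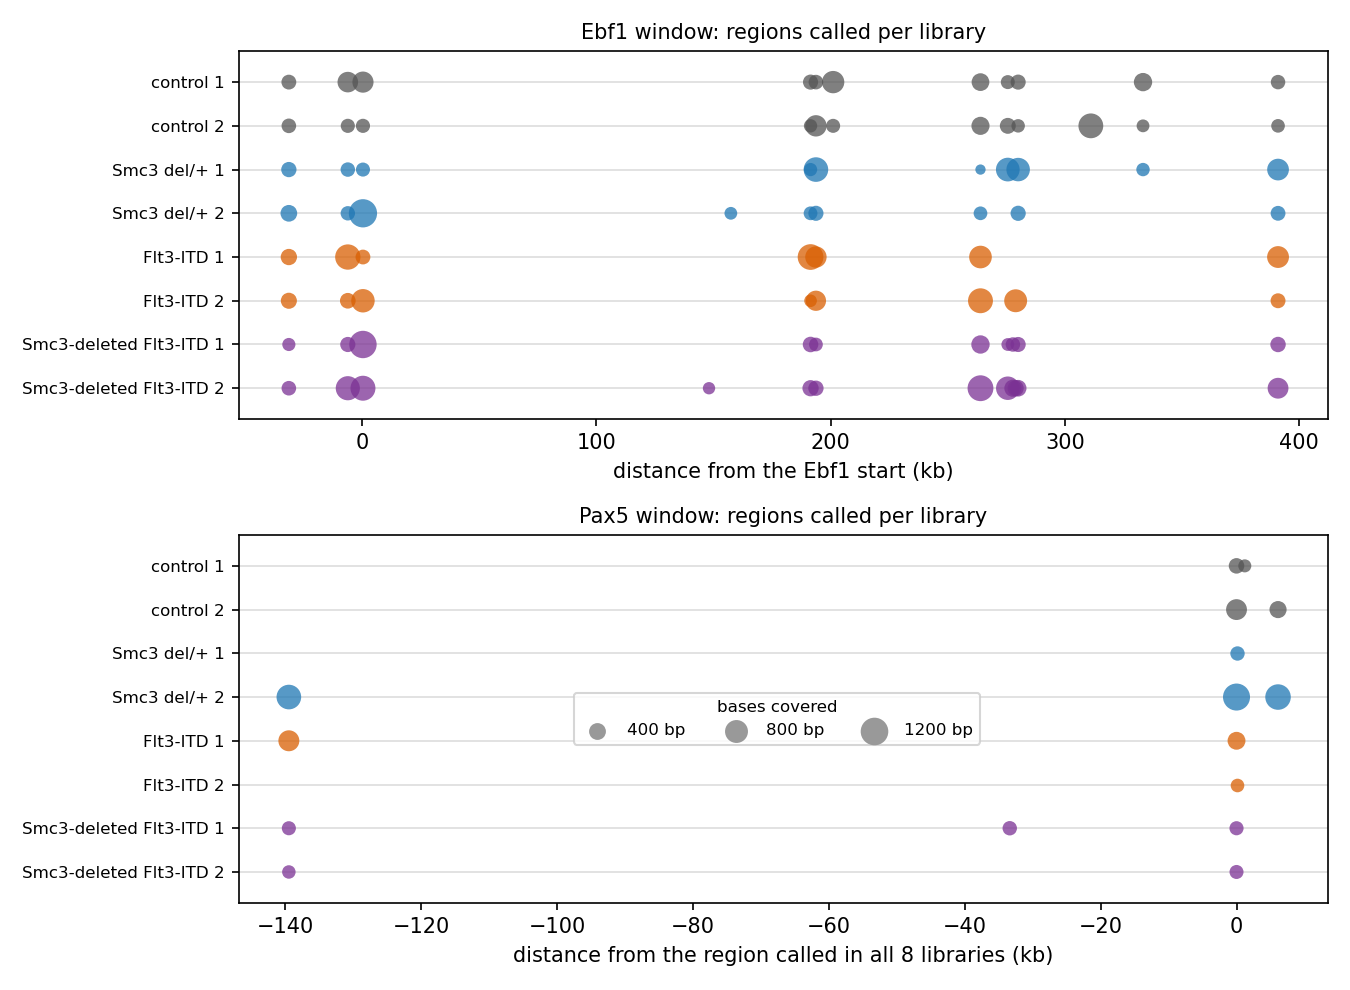
Regions called in each library along the Ebf1 window (upper panel, x axis in kb from the Ebf1 start) and the Pax5 window (lower panel, x axis in kb from the region called in all 8 libraries). Each point is a region called in that library, its area shows the bases covered and its colour the genotype; Flt3-ITD replicate 1 has no point between +264 and +391 kb of Ebf1, and 1 column of points, at 0, is filled in all libraries at Pax5.

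Pax5 had little accessible chromatin in any genotype. Control libraries had 2 and 3 peaks, Smc3 del/+ libraries 1 and 3, Flt3-ITD libraries 2 and 1, and Smc3-deleted Flt3-ITD libraries 3 and 2. All genotypes overlapped. For Flt3-ITD the difference of means was -0.25 and for Smc3 deletion 0.25 (exact permutation p = 1 for both). Covered bases differed by -648 bp for Flt3-ITD (exact permutation p = 0.5429) and by 505 bp for Smc3 deletion (exact permutation p = 0.7714), with adjusted p = 1 for all 4 tests. Smc3 del/+ replicate 2 decided both directions in covered bases: it had 3665 bp against 341 to 1398 bp in the other 7 libraries, and without it the differences were 61.6 bp and -228 bp.

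A single Pax5 region was common to all 8 libraries (chr4:44717005-44718350). It was covered over 445 and 801 bp in control, 380 and 1346 bp in Smc3 del/+, 589 and 341 bp in Flt3-ITD, and 368 and 362 bp in Smc3-deleted Flt3-ITD. Its best peak ranked between the 50.5 and the 86.4 percentile of scores within its list, so it ranked above the middle of every list. Pax5 lies on the minus strand between Melk and Zcchc7 in RefSeq order, and its start was not placed on mm9 here. The region 139 kb below the common one (chr4:44577207-44579225) had peaks in both libraries of Smc3-deleted Flt3-ITD (366 and 335 bp), Flt3-ITD replicate 1 (809 bp) and Smc3 del/+ replicate 2 (1119 bp). The nearest control peak lay 137850 bp from it. The other 3 regions were called in 1 or 2 libraries each: chr4:44684115-44684497 in Smc3-deleted Flt3-ITD replicate 1, chr4:44718738-44719051 in control replicate 1, and chr4:44723189-44724388 in control replicate 2 and Smc3 del/+ replicate 2. No Pax5 region other than the common one had the same call in both libraries of every genotype.

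Pairs of genotypes were compared by calls, a region being lost when called in both libraries of the second genotype and neither of the first, and gained the other way round. For 2 libraries against 2 the smallest exact permutation p is 0.333, so no test is given. In these comparisons, shares of all regions count only regions called in both libraries of at least 1 genotype of the pair. In Flt3-ITD against control, 4 of the 11 Ebf1 regions that both libraries of at least 1 of the genotypes called were lost (36.4%, at +201, +276, +280.1 and +333 kb), against 7.85% of all regions. No Ebf1 or Pax5 region was gained, against 4.42% of all, and 1 was without either Flt3-ITD replicate. Best peaks of the lost regions in control lay between the 7.02 and the 57.9 percentile of scores (median 23.6 over 8 calls). The common Ebf1 regions had a median of 52.5, but over 56 calls in all 8 libraries. Above that median were the region at +276 kb in both control libraries (57.9 and 56.3) and that at +333 kb in control replicate 2 (56.2). Among the 50% of peaks ranked highest, 2 regions at both loci were lost. The count was 3 with equal peak numbers, and also with peaks up to 200 bp apart merged. If the free-text descriptions rather than the titles are right, these 4 losses belong to Smc3 del/+.

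In Smc3 del/+ against control, 1 of 11 Ebf1 regions was lost, that at +201 kb, against 8.04% of all regions, and none was gained (3.02% of all). The share at Ebf1 was close to that of the whole series. Among the 50% of peaks ranked highest, 3 regions were lost. The rule is looser with a library left out, and the count was 2 without either control replicate and 3 without Smc3 del/+ replicate 1, which also gave 2 gained.

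In Smc3-deleted Flt3-ITD against control, 2 of 12 Ebf1 regions were lost, at +201 and +333 kb, against 6.00% of all regions. The +278 kb region of Ebf1 and the Pax5 region 139 kb below the common one were gained, 2 of 14 over both loci, against 14.2% of all. The +276 and +280.1 kb regions, not called in Flt3-ITD, were called here in both libraries, as in control. With equal peak numbers no region was gained. Without control replicate 1 the count lost was 4, and without Smc3-deleted Flt3-ITD replicate 1 the count gained was 4.

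Adding Smc3 deletion to Flt3-ITD gained 3 of 10 Ebf1 regions (+276, +278 and +280.1 kb), against 13.0% of all regions, and lost none (2.96% of all). Both of its genotypes carry Flt3-ITD. All 3 gained regions sat in the group of 5.50 kb described above, and no Pax5 region was gained. Their best peaks in the Smc3-deleted Flt3-ITD libraries lay between the 2.57 and the 23.6 percentile, near the lower end of those lists. With equal peak numbers none of the 3 was counted as gained, and with peaks up to 200 bp apart merged 2 were.

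Adding Flt3-ITD to Smc3 deletion gained 1 of 10 Ebf1 regions, that at +278 kb, against 19.7% of all regions, and none was lost (5.95% of all). A count of 1 in 10 is too small to set apart from the share of the whole series, and no Pax5 region changed. With equal peak numbers none was gained and 1 was lost, and leaving out a library gave 2 or 3 gained, with 2 lost without Smc3 del/+ replicate 1 and 1 lost without Smc3 del/+ replicate 2. Comparisons that use the same control libraries, or the same Smc3-deleted Flt3-ITD libraries, are not independent of each other.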

How the data were processed

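The data are 8 peak lists of ATAC-seq libraries, 1 per library. Reads were aligned with Bowtie (no version) to mm9, per the submitters' processing notes, and the peak caller, its settings and the handling of duplicate reads and of the transposase offset are not stated there. Each deposited peak carries a score set by the authors, between 0.99 and 1. Its meaning is not given, so it only ranked or filtered peaks within a list. Groups follow the titles.

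Of 557040 list lines, 1550 repeated intervals were counted once, and none of them lay in the windows. Distinct peaks were merged into regions at 1 bp overlap. The members and lists were chosen with earlier results of these data known. The regions named are, in each window, the 3 common regions of greatest mean coverage, those whose calls follow genotype, and the region nearest the Ebf1 start. The others are named after their values were seen. Values were compared by exact two-sided permutation tests over 70 assignments with Benjamini-Hochberg adjustment over 8 tests, and passed at adjusted p under 0.05. Merging, calls and tests were tested on simulated data. The list of other B-lineage genes was not used, since no mm9 annotation was at hand. Alternatives were the upper 50% of each list, equal peak numbers, repeats counted, exchanged groups, list share, a replicate block, merging to 200 bp, 20% coverage and leaving out each library. Versions were matplotlib 3.10.9, scipy 1.17.1, pandas 2.3.3, numpy 2.4.6 and Python 3.11.15.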

Additional observations from a re-analysis of the deposited data

Results flagged for a closer look

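The number of Ebf1 peaks moved in opposite directions with Smc3 deletion in the 2 backgrounds: both Smc3 del/+ libraries (10 and 9) lay below both control libraries (12 and 12), and both Smc3-deleted Flt3-ITD libraries (11 and 13) lay above both Flt3-ITD libraries (6 and 8). Control and Smc3-deleted Flt3-ITD together had a mean 3.75 peaks above that of the single genotypes (exact permutation p = 0.0286, adjusted p = 0.3429 over 12 tests). This comparison was added after the values were seen. Libraries were permuted freely over all genotypes, so its p does not single out the opposite directions. Only the control mice lacked Mx1-Cre, so the comparison of Smc3 del/+ with control also compares mice with and without the recombinase. The lists of control and Smc3-deleted Flt3-ITD were also longer on average. With equal peak numbers the difference was 1 (exact permutation p = 0.6286), and relative to list length the sides overlapped (exact permutation p = 0.2). Among the 50% of peaks ranked highest in each list it was 3.5 (exact permutation p = 0.0286, adjusted p = 0.3429).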

How the results depend on the processing

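None of the 8 planned tests passed under any alternative that was run. Even a test at the smallest exact permutation p of 0.0286 could not pass alone over 8 tests (adjusted p = 0.2286). Directions only are therefore compared. With the upper 50% of each list, the Smc3 deletion differences at Ebf1 turned to -1 peak and -447.5 bp. With equal peak numbers they turned to -0.5 peaks and -786 bp, and the Flt3-ITD difference in Ebf1 covered bases turned to -382 bp. As a share of autosomal covered bases, the Smc3 deletion difference at Ebf1 turned to -0.000661 percentage points. Exchanging the Flt3-ITD and Smc3 del/+ groups only swaps the values of both contrasts, so its outcome was fixed in advance. Peak number differences then read 1.25 (Flt3-ITD) and -1.25 (Smc3 deletion) at Ebf1 and 0.25 and -0.25 at Pax5. Those in Pax5 covered bases read 505 bp and -648 bp.

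Region counts moved as follows. With the upper 50%, losses in Smc3 del/+ against control were 3 and in Flt3-ITD against control 2, and gains in Smc3-deleted Flt3-ITD were 1 against control and 3 against Smc3 del/+. With equal peak numbers the gains of Smc3-deleted Flt3-ITD were 0 against control, Flt3-ITD and Smc3 del/+, and its losses against Smc3 del/+ were 1. With exchanged groups the same counts only change names. Losses against control were then 4 in Smc3 del/+ and 1 in Flt3-ITD. Gains of Smc3-deleted Flt3-ITD were 1 against Flt3-ITD and 3 against Smc3 del/+. With 20% of a region covered, gains of Smc3-deleted Flt3-ITD against control were 1. The cause was not tested.

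Leaving out each library, the Flt3-ITD difference ranged from -2.42 to -0.0833 peaks and from -178 to 923 bp at Ebf1, and from -0.667 to 0.0833 peaks and from -1033 to 61.6 bp at Pax5. For Smc3 deletion the ranges were 0.0833 to 2.08 peaks and -649 to 780 bp at Ebf1, and -0.0833 to 0.667 peaks and -228 to 867 bp at Pax5. Against control, gains ranged from 0 to 2 in Smc3 del/+, 0 to 1 in Flt3-ITD and 2 to 4 in Smc3-deleted Flt3-ITD, and losses from 1 to 3, 4 to 6 and 2 to 4. Gains of Smc3-deleted Flt3-ITD ranged from 3 to 4 against Flt3-ITD and from 2 to 3 against Smc3 del/+, and losses from 0 to 0 and from 0 to 2. The further comparison of Ebf1 peak number ranged from 3 to 4.33 peaks.

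Replicate numbers did not pair the libraries: deviations of same-numbered libraries in calls correlated at -0.0103 to 0.00806 over 6 genotype pairs. No planned test could pass with the replicate block, where the smallest exact permutation p allowed is 0.0556. The smallest found was 0.6111, for the Pax5 covered bases difference of -648 bp. The further comparison of Ebf1 peak number (3.75) had an exact permutation p = 0.0556 in the block, the smallest it allows. Unknown read depth limits every count of peaks.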
